A study of Mus musculus with 8 samples.

Results

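A set of 10 genes of the yolk sac secretory and uptake programme was followed across cell types, stages and genotypes. They were taken by name from the matrix: the plasma carriers Ttr, Rbp4 and Afp, the apolipoproteins Apoa1, Apoa4, Apob, Apom and Apoe, and the receptor pair Cubn and Amn. All 10 were found, each once, among 55422 features. Mouse chimaeras had been made by placing Tet-TKO embryonic stem cells, which lack Tet1, Tet2 and Tet3 and carry an H2B-tdTomato label, in C57BL/6J blastocysts that then grew in CD1 females. Pooled embryos were sorted into tdTomato+ Tet-TKO cells and tdTomato- wild-type (WT) host cells, and each fraction was profiled by droplet single-cell RNA-seq, which counts unique molecular identifiers (UMIs) at the 3′ end of transcripts. At embryonic day (E) 8.5 the Tet-TKO fraction gave 4 libraries and the WT host fraction 2, and at E7.5 each fraction gave 1. The Tet-TKO cells came from 1 line of mixed C57BL/6J-129Sv background, so genotype, strain and passage through culture cannot be told apart. Injected stem cells seldom enter the visceral endoderm, the extraembryonic layer that makes the yolk sac's outer epithelium, so most of that layer in a chimaera is host tissue.

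The visceral endoderm is the first absorptive and secretory epithelium of the mouse embryo. It takes up maternal protein and lipid through the receptor of cubilin (Cubn) and amnionless (Amn), and it assembles lipoproteins and secretes plasma carriers before the liver does. Apob is the structural protein of the large lipoproteins, Apoa1 and Apoa4 are exchangeable apolipoproteins of high density and intestinal lipoproteins, Apom carries sphingosine-1-phosphate, and Apoe is a ligand of lipoprotein receptors that many tissues make. Ttr carries thyroxine and binds the retinol carrier Rbp4, and Afp is the fetal relative of albumin.

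The members are given with their positions in GRCm38, the build of the files, from GENCODE M21, and 3 of the places are clusters that hold other carriers. Apoa1 (chromosome 9, 46228580 to 46230466, plus strand) and Apoa4 (9, 46240696 to 46243459, plus) enclose Apoc3 in a cluster of 43.3 kb that ends with Apoa5. Apoe (7, 19696109 to 19699188, minus) closes a cluster of 27.6 kb with Apoc2, Apoc4 and Apoc1. Afp (5, 90490737 to 90508907, plus) lies next to Alb within 48.0 kb. The members outside these clusters include Apob (12, 7977648 to 8016835, plus), Apom (17, 35128997 to 35132050, minus), Rbp4 (19, 38116629 to 38125281, minus), Cubn (2, 13276338 to 13491813, minus) and Amn (12, 111271095 to 111276426, plus).

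Promoters are shown for the members whose window held a motif of an endoderm factor or a TATA box, and for Apoe, the member with the widest expression below. They are RefSeq sequences of GRCm38.p6, read 5′ to 3′ along the gene's strand up to the first annotated start, with the matched motif in capitals.

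Afp (chr5:90490464-90490713, plus strand; HNF1 motif, then TATA box): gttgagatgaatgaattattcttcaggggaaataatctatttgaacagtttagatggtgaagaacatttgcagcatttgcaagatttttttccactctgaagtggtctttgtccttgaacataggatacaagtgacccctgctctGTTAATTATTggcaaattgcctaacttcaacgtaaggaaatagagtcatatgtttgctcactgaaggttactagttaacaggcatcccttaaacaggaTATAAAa

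Rbp4 (chr19:38125322-38125571, minus strand; FOXA motif on the opposite strand): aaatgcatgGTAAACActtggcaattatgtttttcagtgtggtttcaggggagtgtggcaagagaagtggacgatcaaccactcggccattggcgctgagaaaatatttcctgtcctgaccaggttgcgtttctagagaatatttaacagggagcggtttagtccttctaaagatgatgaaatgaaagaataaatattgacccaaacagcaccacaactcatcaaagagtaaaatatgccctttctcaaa

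Apob (chr12:7977427-7977647, plus strand; TATA box): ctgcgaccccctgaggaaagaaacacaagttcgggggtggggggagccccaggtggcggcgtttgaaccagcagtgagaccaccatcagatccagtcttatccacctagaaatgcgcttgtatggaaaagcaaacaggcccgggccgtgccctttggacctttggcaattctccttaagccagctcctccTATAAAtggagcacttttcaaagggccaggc

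Apoe (chr7:19699189-19699438, minus strand; no match): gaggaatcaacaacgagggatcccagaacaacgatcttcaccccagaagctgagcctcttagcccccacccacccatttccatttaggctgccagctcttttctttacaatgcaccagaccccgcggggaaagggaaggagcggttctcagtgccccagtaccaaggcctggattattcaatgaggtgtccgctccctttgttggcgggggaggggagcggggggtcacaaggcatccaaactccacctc

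Windows of the 250 bases before the RefSeq start were searched on both strands in 27025 genes, 9 members among them. The 10 letters of the HNF1 motif, GTTAATTATT with the seventh base free, stood in 0.411% of all windows and in 1 member, Afp, 128 bases before the GENCODE start. The FOXA letters TGTTTAC stood in 3.09% of windows and in 1 member, Rbp4. TATAAA stood in 13% of windows and in 2 members, Apob and Afp, 31 and 30 bases before their GENCODE starts. The HNF4 letters CAAAGTCCA (0.381% of windows), the GATA letters AGATAA (10.3%) and the HNF1 form with AAC added at its end (0.0074%) were in none of the 9. For Apom and Apoa4 only 1 and 102 of the 250 bases lay before the GENCODE start, so most of what was searched there lay after that start. A match to these letters is a description of the sequence, and a promoter without one may hold other forms.

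After filters on cells, 49838 of 52526 barcodes were kept, between 1008 and 9545 per library. Libraries held between 65601218 and 136982886 UMIs. At E8.5 the median kept cell of Tet-TKO libraries 3 and 4 had 40404 and 68931 UMIs, against 12178 to 18774 in the other 4 libraries. A tdTomato UMI was found in 60.8% to 87.3% of cells of the Tet-TKO libraries and in 0.532% to 0.841% of WT host cells. Cells were clustered afresh without the 10 members, and a class was named "-like" from other markers. The labels and methods used here do not say which libraries were separate pools of embryos. Libraries 1 and 2 and libraries 3 and 4 of the Tet-TKO group differed less from each other than from the rest, and p-values below measure the spread between libraries only. Among the barcodes, 358 occurred in more than 1 library.

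In visceral endoderm-like cells of the WT host all 10 genes were abundant, and together they made 4.04% and 4.03% of all UMIs in E8.5 libraries 1 and 2. This class held 538 and 225 cells there, and 487 in the E7.5 WT host library. Levels are given as CPM, a gene's UMIs per 1000000 UMIs of all cells of the class in that library. With 3′ counting they compare numbers of molecules between genes. Because the class is a cluster, these levels are a description. Ttr led with 10778 and 10945 CPM in WT host libraries 1 and 2 (10861 ± 119, SD, n = 2).

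A group of 3 genes stood below it. Apoa1 had 7489 and 7401 CPM, Rbp4 7162 and 7256 CPM, and Apoe 7304 and 6729 CPM. Their means were 7445 ± 62.5, 7209 ± 66.8 and 7017 ± 407 CPM (SD, n = 2). Both values of Rbp4 lay between those of Apoe, so Rbp4 and Apoe do not differ beyond their spread. Both values of Apoa1 lay above those of Rbp4 and Apoe. Apom followed with 3244 and 3021 CPM.

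The remaining genes were lower. Afp had 1463 and 2260 CPM, the widest relative spread of the 10 (1862 ± 564, SD, n = 2), and both values lay between those of Apom and Amn. Amn had 1179 and 1037 CPM and Apob 879 and 799 CPM. Cubn, the large ligand-binding partner of Amn, had 559 and 480 CPM, less than its membrane anchor. Apoa4 was lowest, at 326 and 406 CPM. Single cells carried a median of 228 UMIs of Ttr and 5 of Apoa4 in WT host library 1. Ttr was detected in 100% of these cells in both libraries, and Apoa4, the least often detected with Cubn, in 89.0% and 88.0%.

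**Figure D1:**
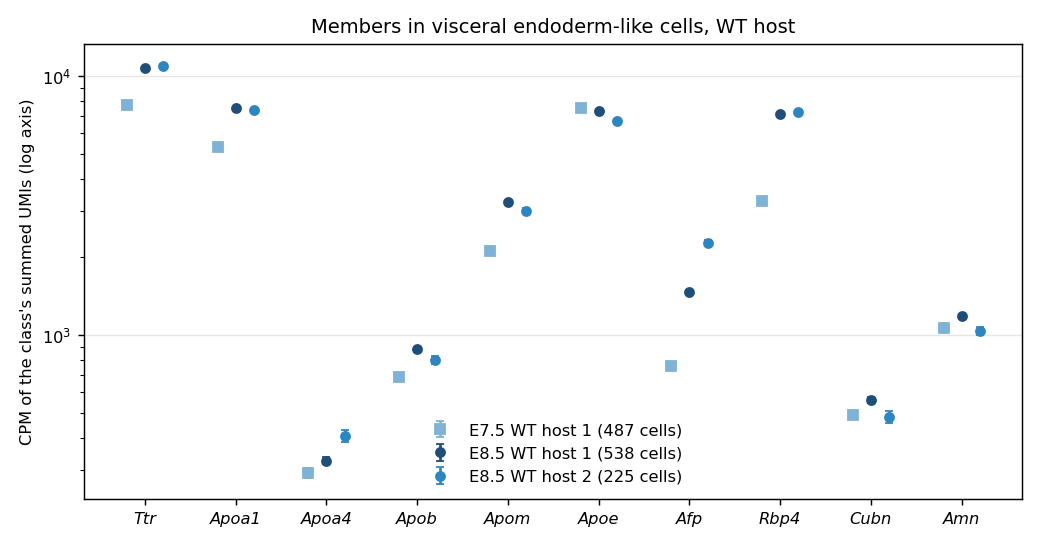
Levels of the 10 genes in visceral endoderm-like cells of the 3 WT host libraries, in CPM of the class's summed UMIs on a log axis, with 95% Poisson intervals that cover counting error only. At E8.5 the circles of both libraries nearly coincide for Ttr, Apoa1 and Rbp4, while Afp differs between them (1463 and 2260 CPM), and the E7.5 square lies lowest for 7 genes.

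At the earlier stage the same genes were already high. In the 487 visceral endoderm-like cells of the E7.5 WT host library the 10 made 2.93% of UMIs. Ttr had 7710 CPM (95% Poisson interval 7644 to 7777) and Apoe, at 7539 CPM, stood beside it. Rbp4 had 3279 CPM (3236 to 3323) against 7162 and 7256 at E8.5, and Afp had 756 CPM (736 to 777) against 1463 and 2260. Cubn and Amn, the uptake receptor, had 488 and 1062 CPM at E7.5, each between its E8.5 levels. With 1 library at E7.5 there is no replicate check of a difference between stages. Apoe was the one member whose E7.5 level lay above both E8.5 levels.

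The E7.5 class was made of 2 clusters that differed in the order of the 10 genes. In cluster 18, with 264 WT host cells, genes of the anterior visceral endoderm (AVE, the signalling centre that patterns the head end) summed to 961 CPM. In cluster 19, with 223 WT host cells, they summed to 32.5 CPM. Rbp4 had 1970 CPM in cluster 18 and 4418 CPM in cluster 19. Apom had 1531 and 2615 CPM, Apoa1 4517 and 6053 CPM, and Cubn 370 and 590 CPM, all lower in the AVE-rich cluster. Ttr went the other way, with 8882 and 6691 CPM, as did Apoe with 7946 and 7186 CPM and Afp with 878 and 650 CPM. Rbp4 and its plasma partner Ttr were thus ordered oppositely in the 2 clusters. This is a description within 1 library, with no test.

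A further cluster, 30, had a shallow median of 3685 UMIs in the WT host library and stayed unnamed. Its 80 WT host cells held the members at 3.40% of UMIs and its 48 Tet-TKO cells at 0.982%.

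Few cells of the sorted Tet-TKO fraction were visceral endoderm-like, and those few had the members at high levels. There were 7, 2, 8 and 4 such cells in Tet-TKO libraries 1 to 4 at E8.5 and 7 at E7.5, against 6.52% and 2.49% of WT host cells at E8.5. A tdTomato UMI was present in 0, 2, 1 and 0 of them at E8.5 and in 3 of 7 at E7.5, while most cells of these libraries had one. Their median depths were 4957, 29166, 4627.5 and 2922 UMIs at E8.5 and 6862 at E7.5. The medians of all kept cells were 18774, 12178, 40404 and 68931 UMIs at E8.5 and 20743.5 at E7.5. Most of these cells were thus shallow, which makes a tdTomato UMI less likely to be seen. Whether those without one were host cells that passed the sort was not tested.

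The 10 genes made 5.84%, 2.73%, 4.09% and 2.46% of UMIs in these cells at E8.5 and 2.43% at E7.5. Ttr had 16040, 8263, 10380 and 7373 CPM in libraries 1 to 4. These levels lie on both sides of the 10778 and 10945 CPM of the WT host. In library 2, whose 2 cells both had a tdTomato UMI, Ttr, Apoa1 and Rbp4 stood at 8263, 5126 and 4937 CPM. With fewer than 10 cells per library no test between genotypes was made in this class.

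Outside the endoderm, 9 of the 10 genes sat at a low level in most classes. Free RNA in the droplets gives such UMIs to cells that do not express a gene, so the level in a class that should lack these genes was taken as the reference: brain-like and spinal cord-like cells at E8.5. There, Ttr had 0.298 and 0.109 UMIs per cell in WT host libraries 1 and 2 and 0.0127, 0.0172, 0.0588 and 0.0272 in Tet-TKO libraries 1 to 4. Ttr was thus higher in the reference cells of both WT host libraries than in those of any Tet-TKO library. The WT host libraries also had most visceral endoderm-like cells, so genotype and the number of such cells cannot be told apart here. Tet-TKO libraries 1 to 4 had 7, 2, 8 and 4 such cells, and their Ttr levels were not in that order.

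Over the 22 classes of at least 100 cells outside visceral and gut endoderm, Ttr ranged from 0.174 to 0.725 UMIs per cell around a median of 0.316 in WT host library 1. Over 21 classes of WT host library 2 it ranged from 0.0467 to 0.250, with a median of 0.120. A Ttr UMI was present in 23.0% of reference cells of WT host library 1, at a median depth of 14278 UMIs, against 100% of its visceral endoderm-like cells, at 22618. Thinned to 5000 UMIs per cell, the shares were 9.52% and 100%, with 501 of 526 and 467 of 538 cells deep enough to be thinned.

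Visceral endoderm-like cells, with 6.52% of the cells of WT host library 1, held most molecules of 9 members in the WT host: 83.6% to 96.3% of all UMIs of each gene at E8.5 and 84.4% to 91.3% at E7.5. For Apoe the shares were 70.7% and 55.4% at E8.5 and 51.9% at E7.5.

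**Figure D2:**
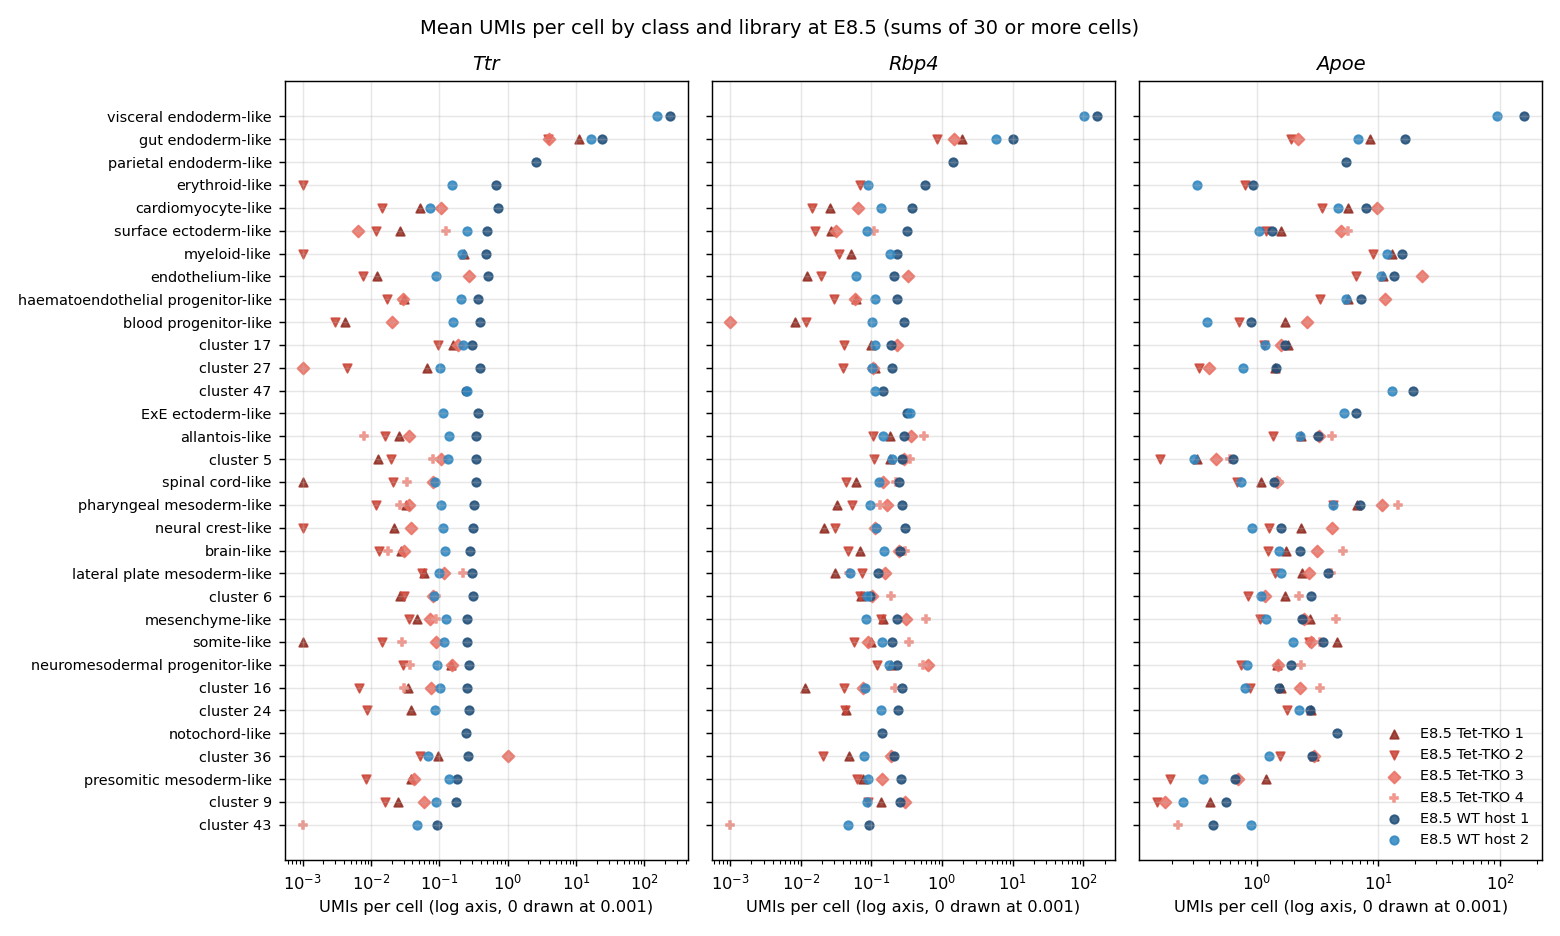
Mean UMIs per cell of Ttr, Rbp4 and Apoe in each class at E8.5, on log axes, with 1 marker per library and sums of 30 or more cells; values of 0 are drawn at 0.001. Ttr and Rbp4 fall from visceral through gut endoderm-like cells to a low band in which WT host circles lie mostly right of Tet-TKO markers, while Apoe spreads over many classes.

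A class was counted above the reference when its UMIs per cell were at least 2 times the reference in every library with 10 or more cells of it. At least 2 such libraries were needed. This held for 26 of 320 pairs of a member and a class at E8.5, against 2.31% of all pairs of a gene and a class. All 10 genes passed in visceral endoderm-like cells, by 74.4- to 79.3-fold for Apoe and by 516- to 1406-fold for the other 9. Apoa1, Apoa4 and Cubn passed in no other class of the 32. Of the rest, 5 pairs were in gut endoderm-like cells, 9 were of Apoe, and 1 each was of Amn and Apob.

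Ttr passed in gut endoderm-like cells by 68.0- to 855-fold, Afp by 5.75- to 124-fold, Apom by 4.52- to 70.4-fold, Rbp4 by 5.20- to 40.2-fold and Amn by 2.30- to 40.5-fold. The range of Amn leaves out Tet-TKO library 4, which passed with 1 UMI in 13 gut endoderm-like cells because its 147 reference cells had 0. Apoa1, Apob, Cubn and Apoa4 did not pass there in every library.

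The proportions among the genes were compared too. Free RNA from 1 source keeps its genes in 1 ratio, so the number of UMIs per Ttr UMI outside the endoderm was divided by that in visceral endoderm-like cells. For Apom the quotient was 0.963 and 0.937 in WT host libraries 1 and 2 and 0.839, 0.878, 0.929 and 0.930 in Tet-TKO libraries 1 to 4. For Apoa1 it was 0.848 and 0.998, for Afp 0.950 and 1.03, and for Apoa4 1.14 and 1.05 in the WT host. The Tet-TKO libraries, with 2 to 8 visceral endoderm-like cells each, spread wider, from 0.892 to 1.45 for Apoa1, from 0.468 to 2.36 for Afp and from 0.911 to 2.30 for Apoa4. In the WT host these 4 genes thus stood at 0.848 to 1.14 times the proportion to Ttr that they had in the yolk sac class.

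Apob, Cubn and Amn were less even between the WT host libraries, with quotients of 0.933 and 1.38, 1.12 and 1.66, and 0.889 and 1.52.

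**Figure D3:**
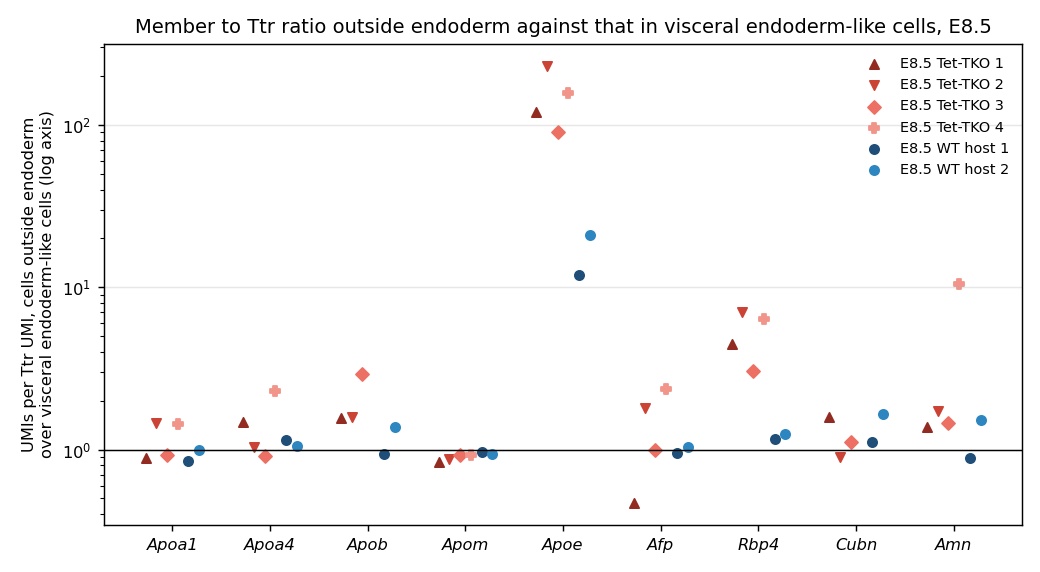
Quotient of the UMIs of each gene per Ttr UMI outside the endoderm over that in visceral endoderm-like cells at E8.5, with 1 marker per library on a log axis and a line at 1; quotients with no UMI of the gene in the few Tet-TKO visceral endoderm-like cells are not drawn. Apom lies at 0.839 to 0.963 in all 6 libraries, Apoe lies at 11.9 to 231, and Rbp4 lies near 1 in the WT host and at 3.04 to 7.07 in Tet-TKO.

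Apoe departed from Ttr everywhere, with quotients of 11.9 and 21.04 in the WT host and of 120, 231, 90.5 and 156 in Tet-TKO libraries. It had its own distribution over embryonic tissues. Endothelium-like cells had 1090 and 1030 CPM in the WT host and 598, 541, 559 and 199 CPM in Tet-TKO libraries 1 to 4. Myeloid-like cells had 787 and 782 CPM in the WT host and 533, 565 and 730 CPM in the Tet-TKO libraries with enough cells, 7.90- to 12.7-fold the reference per cell. Cardiomyocyte-like cells had 536 and 349 CPM against 393, 297, 243 and 246 CPM. At the low end, cluster 9 had 38.5 and 19.9 CPM in the WT host. Even the reference cells held 1.99 and 1.27 Apoe UMIs per cell in the WT host and 0.945 to 2.93 in Tet-TKO libraries. How much of this was free RNA was not tested.

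Rbp4 departed from Ttr in the Tet-TKO libraries, with quotients of 4.48, 7.07, 3.04 and 6.35 against 1.16 and 1.25 in the WT host. In these libraries the level of Rbp4 was not the same in all classes. Allantois-like cells had 8.92, 7.82, 8.28 and 8.05 CPM in Tet-TKO libraries 1 to 4 and neuromesodermal progenitor-like cells 9.64, 9.16, 13.7 and 7.17 CPM. Surface ectoderm-like cells had 1.52, 1.31, 0.750 and 1.45 CPM. Every Tet-TKO value of surface ectoderm-like cells lay below every value of the other classes named. In WT host library 1 this order was not seen, with 17.4 CPM in allantois-like, 15.5 CPM in neuromesodermal progenitor-like and 21.7 CPM in surface ectoderm-like cells. In library 2 it was, with 10.5, 14.1 and 6.65 CPM. Mesenchyme-like cells, at 7.03 to 10.8 CPM in Tet-TKO libraries, lay above surface ectoderm-like cells in all 4 of them but below in both WT host libraries (13.4 and 5.89 CPM). These classes were picked after their values were seen, so no test is given.

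Apob was above the reference in cluster 6, a mesodermal group led by Alx1, Aldh1a2 and Osr1, with 5.02 and 3.42 CPM in the WT host and 1.16, 3.79, 8.60 and 8.48 CPM in Tet-TKO libraries. The reference cells of Tet-TKO libraries 1, 2 and 4 had 0 Apob UMIs, so that any count passed there, and cluster 6 held 5, 17 and 48 of them. Apoa1 and Cubn did not pass the reference rule there. The genotypes overlapped, and edgeR's quasi-likelihood test gave a log2 fold change of 0.41 ± 0.69 (SE) and an adjusted p of 0.874. Amn passed without its partner Cubn in extraembryonic (ExE) ectoderm-like cells, which line the placental side of the embryo, with 6.13 and 9.51 CPM in the WT host at E8.5. At E7.5 it had 296 UMIs in 1866 such WT host cells, and stood at 3.85 to 4.30 times the reference per cell in the 2 libraries.

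The comparison of genotypes asks which of these genes differ between Tet-TKO and host cells of chimaeras. Summed over all cells of a library, all 10 were lower in Tet-TKO at E8.5, and no Tet-TKO library reached a WT host library for any gene. In such sums fewer cells of a type and less RNA per cell cannot be told apart, and visceral endoderm-like cells numbered 538 and 225 in the WT host against 2 to 8 in Tet-TKO libraries. Ttr had 1127 and 327 CPM in the WT host against 33.9, 9.84, 27.4 and 3.82 CPM in Tet-TKO libraries 1 to 4. Apoe had 151, 116, 97.9 and 70.0 CPM against 915 and 303 CPM. Ttr sums of the 2 WT host libraries were in the same order as their shares of visceral endoderm-like cells, 6.52% and 2.49%.

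By edgeR's quasi-likelihood test over 21072 genes, where a call needs an adjusted p under 0.01 and a log2 fold change of at least 1 in size, 2 of the 10 were called lower, where 2.06% of all genes were called lower. They were Rbp4 (log2 fold change -5.09 ± 0.68, SE, adjusted p = 0.00756) and Amn (-5.86 ± 0.84, adjusted p = 0.00911). Without visceral and parietal endoderm-like cells neither passed (Rbp4 -3.12, adjusted p = 0.0139, and Amn -3.82, adjusted p = 0.01002), and edgeR called Afp, Apoa1, Apoa4 and Cubn, 4 that had not passed over all cells. Over all cells the other 8 had adjusted p-values between 0.0106 and 0.0187, and all 10 had an unadjusted p under 0.05. The median log2 fold change of the 10 was -5.30, against 0.02 over all genes. With DESeq2 all 10 were called, among 1442 of 21072 genes, and with the Tet-TKO libraries that resemble each other summed 0 were, among 0 of 20734 genes.

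Within classes the members were lower in Tet-TKO in most pairs and called in few. Of 123 pairs of a member and a class with enough counts, 119 were lower in Tet-TKO and 24 were called, all lower, against 0.346% of all pairs of a gene and a class called lower. WT host libraries alone can supply the counts, so the filter favours pairs that are lower in Tet-TKO. The 119 of 123, the direction of the 24 calls and the median of these pairs are therefore no test of direction. That median log2 fold change was -2.45, against 0.01 over all pairs of a gene and a class past the same filter. Called pairs were 9 of 26 for Ttr, 7 of 20 for Apoa1, 4 of 7 for Afp, 3 of 25 for Rbp4 and 1 of 10 for Apom. For Apoe 0 of 29 pairs were called, 15 of them with an unadjusted p under 0.05, and DESeq2 called 1. The largest called change of Ttr was in blood progenitor-like cells. These cells held 0.397 and 0.160 Ttr UMIs per cell in the WT host and 0.00417, 0.00294, 0.0204 and 0.0526 in Tet-TKO libraries. By edgeR the log2 fold change was -5.78 ± 0.52 (SE, adjusted p = 0.000241), in a class in which 0.963% of genes were called lower. Ttr reached 2 times the reference per cell there in 0 of 6 libraries (0.171 to 1.93 times), so this is a change at the reference level.

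Called were 19 of 99 pairs in classes not above the reference and 2 of 12 in classes above it. The other 3 were in brain-like cells, a reference class itself with 0.474% of genes called lower, where Ttr (-4.04 ± 0.51), Apoa1 (-3.04 ± 0.33) and Afp (-5.15 ± 0.73) were called. When each library's reference level was subtracted from its classes, 3 of 43 testable pairs were called, beside 0.583% of all genes in the same fits, whose own counts were not altered. Rbp4 in gut endoderm-like cells was among them (-3.41, adjusted p = 0.00644), as was Ttr in blood progenitor-like cells (adjusted p = 0.00596). The latter had 1 UMI in each of the 4 Tet-TKO libraries, which the subtraction brought to 0, so no fold is given for it. The third, Apoe in neural crest-like cells, higher in Tet-TKO (adjusted p = 0.000329), rests on WT host sums that the subtraction brought to 0. The sign turned in 13 of the 43 pairs, none of them called in either fit. Among them were Rbp4 in allantois-like cells, from -0.77 to 1.89, and Apoe in cluster 17, from -0.75 to 7.74. Many of the 43 pairs and of the 13 were of Apoe, including brain-like cells, which are part of the reference itself. How much of the Apoe reference level was free RNA was not tested, so for Apoe the subtraction may take away expression as well. Without WT host library 1, which leaves 1 library assumed to vary like the other group, 1 pair was called, while the calls over all genes and classes fell from 1723 to 665.

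**Figure D4:**
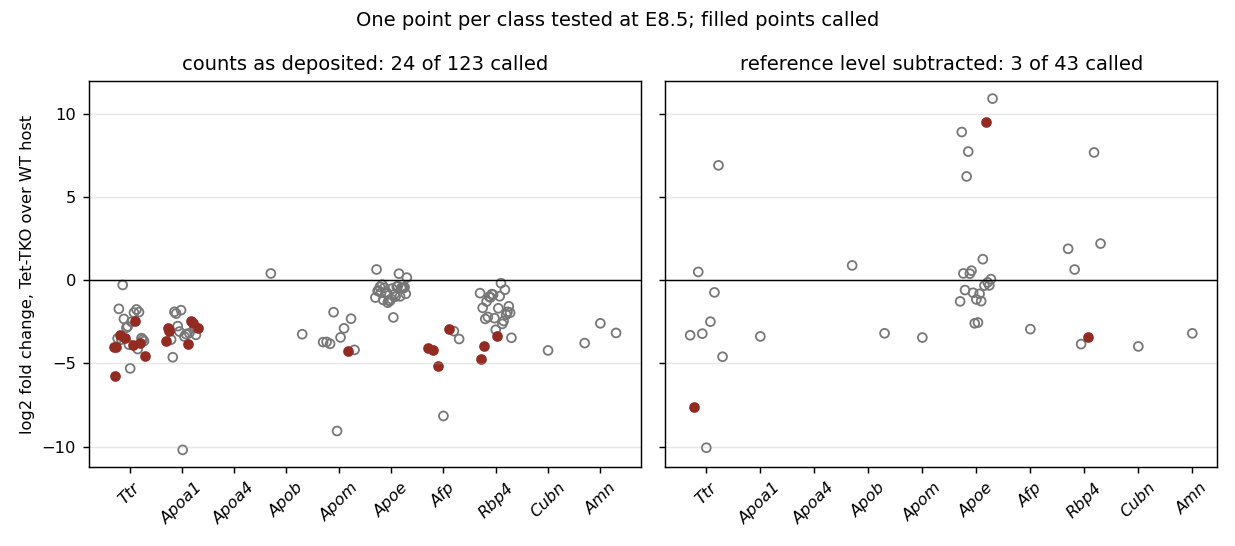
Log2 fold changes of Tet-TKO over WT host at E8.5, 1 point per class tested for each gene, filled where called (adjusted p under 0.01, log2 fold change of at least 1 in size). On the counts as deposited 24 of 123 points are filled, all below 0, and after subtraction of each library's reference level 3 of 43.

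In gut endoderm-like cells 5 members were above the reference and Rbp4 and Afp were lower in Tet-TKO. The class held 815 and 342 WT host cells and 249, 142, 51 and 13 Tet-TKO cells in 3 clusters, with tdTomato UMIs in 51 of 86 cells of cluster 30 in Tet-TKO library 1. Rbp4 had 868 and 484 CPM in the WT host and 109, 64.2, 39.7 and 19.4 CPM in Tet-TKO libraries 1 to 4. Afp had 92.4 and 51.8 CPM against 13.4, 1.62, 7.40 and 12.6 CPM. Both sets of libraries were apart, and both genes were called (Rbp4 -3.36 ± 0.46, SE, adjusted p = 0.00522; Afp -2.93 ± 0.43, adjusted p = 0.00734), where 0.475% of all genes in the class were called lower.

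Ttr, the most abundant member there, had 2098 and 1392 CPM against 623, 300.2, 108 and 105 CPM, which do not overlap, and was not called (-2.50 ± 0.60, SE, adjusted p = 0.0734). Apom had 287 and 118 CPM against 38.5, 9.17, 5.29 and 2.28 CPM (-3.44, adjusted p = 0.0194). Apoa1, Amn, Apob and Cubn had log2 fold changes of -3.38, -3.17, -3.24 and -4.22 and adjusted p-values of 0.0467, 0.0506, 0.0517 and 0.0196. Apoe had 1440 and 577 CPM against 484, 145, 59.2 and 92.4 CPM (-2.23, adjusted p = 0.168). Apoa4, at 5.53 and 2.71 CPM in the WT host, was too low to test.

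The summed CPM of the visceral endoderm markers in cluster 30 was 7923 and 4732 CPM in the WT host and 8483, 5464, 1911 and 3002 CPM in Tet-TKO libraries 1 to 4, so there it overlapped between the genotypes. In cluster 33 it was 4319 and 2903 against 2953, 1571, 914 and 974 CPM, with an overlap of 1 library. In cluster 38 it moved with the members and did not overlap, with 11715 and 6539 against 4386, 2682, 1581 and 1447 CPM. The 3 clusters differed in Ttr. Ttr had 2739 and 2282 CPM in cluster 30 of the WT host against 1569, 1136, 275 and 347 CPM. In cluster 33 it had 355 and 309 CPM against 60.2, 11.03, 1.17 and 1.88 CPM. In cluster 38, whose WT host cells were shallow with a median of 7529 and 7994 UMIs, it had 3640 and 1469 CPM against 302, 81.2, 132 and 228 CPM. Ttr was lower in every Tet-TKO library than in both WT host libraries within each cluster. Tet-TKO library 4, however, had only 3, 6 and 4 cells in clusters 30, 33 and 38, and library 3 had 13, 21 and 17. The part of visceral endoderm-derived cells in this difference was not tested. Both calls rest on both WT host libraries: without library 1 the adjusted p was 0.0826 for Rbp4 and 0.170 for Afp, and without library 2 it was 0.0202 and 0.0237. Each call was also lost without Tet-TKO library 3 (0.0115 and 0.0159), that of Rbp4 without library 2 (0.0211) and with like Tet-TKO libraries summed (0.0257), and that of Afp without library 4 (0.0129) and after the subtraction (0.01002, with a log2 fold change of -2.94). Other settings called more: all 10 members with no filter on low counts or in the fit of libraries 1 and 2 alone with a replicate block, and with DESeq2 3 of 9, Cubn being added. Over all genes and classes these 3 settings called 7544 of 623520, 7199 of 267873 and 3339 of 289569 pairs, against 1723 of 289569 in the main fit. Without Tet-TKO library 1 it was 1661 of 284489. Shares for this class alone are not given. Without Tet-TKO library 1 edgeR called 7 of 8 tested members lower, among them Ttr (-3.27, adjusted p = 0.00326), Apom (-4.99, adjusted p = 0.000612), Apoe (-3.29, adjusted p = 0.00320) and Apoa1 (-5.75, adjusted p = 0.00196).

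**Figure D5:**
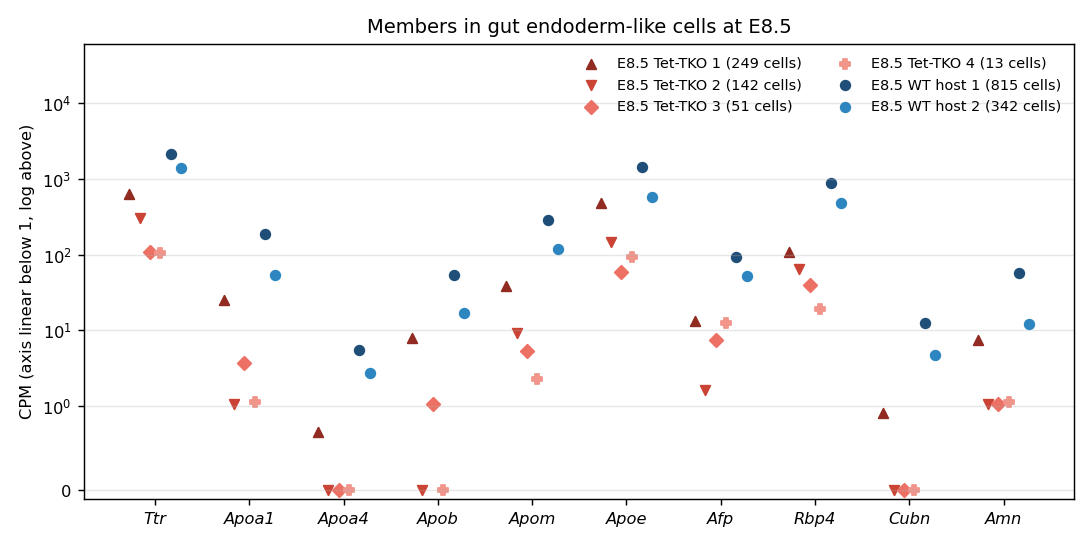
CPM of the 10 genes in gut endoderm-like cells at E8.5, with 1 marker per library on an axis that is logarithmic above its lowest part. For Rbp4 both WT host libraries (868 and 484 CPM) lie above the 4 Tet-TKO libraries (19.4 to 109 CPM), as they do for Afp.

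At E7.5, with 1 library per genotype and no test, all 10 genes were again lower in the Tet-TKO library. Over all cells Ttr had 558 CPM in the WT host against 11.8 CPM in Tet-TKO, a log2 ratio of -5.57. Afp had the lowest ratio (-7.13) and Apoe the highest (-2.06), with 227 and 944 CPM. Without visceral and parietal endoderm-like cells the log2 ratios ran from -4.70 for Apob to -1.13 for Apoe, and the median moved from -5.62 to -3.34. These cells still include the unnamed cluster 30, with 12707 UMIs of the members in 80 WT host cells and 1880 in 48 Tet-TKO cells. They also include the unnamed cluster 31, with 115 WT host and 2 Tet-TKO cells, whose summed visceral endoderm markers (16915 CPM) and members (7589 CPM) were high in the WT host. In epiblast-like cells, the reference at this stage, Ttr had 7 UMIs in Tet-TKO and 26 in the WT host, a log2 ratio of CPM of -4.20. Apoe there had 144 and 160 CPM (-0.15) and Rbp4 5.05 and 9.16 CPM (-0.86). Apoa1, with 28 and 25 UMIs, had a log2 ratio of -2.14 there.

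Other genes of the programme were read in the same way from 5 lists. In visceral endoderm-like cells of the WT host at E8.5, Apoa2 was the highest other apolipoprotein (667 and 1141 CPM). Apoc3, which lies between Apoa1 and Apoa4, had 164 and 171 CPM, and Apoa5, at the end of that cluster, 16.3 and 19.9 CPM. In the Apoe cluster Apoc1 had 266 and 239 CPM, Apoc4 9.89 and 8.85 CPM and Apoc2 5.85 and 8.22 CPM. Neighbours of one cluster thus differed by more than 10-fold. Alb, the neighbour of Afp, had 1 UMI in library 1 and 0 in library 2, which allows up to 0.948 CPM.

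At the low end of the lists, Apoh had 2 UMIs in library 1 and 0 in library 2, Apobec1, which edits Apob mRNA, and the carrier Ahsg had 0 in both, Lrp8 had 0.946 and 0.948 CPM and the regulator Foxa1 1.46 and 1.58 CPM. A count of 0 allows up to 0.258 CPM in library 1 and 0.948 CPM in library 2.

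P4hb, the partner subunit of Mttp, was the highest lipoprotein assembly gene with 372 and 337 CPM. Mttp, which loads lipid onto Apob, had 199 and 178 CPM, and the iron carrier Trf had 352 and 476 CPM. Dab2, an adaptor for uptake through Lrp2 and the cubilin receptor, had 993 and 939 CPM, and Lrp2 itself 120 and 109 CPM. Of the regulators Hnf4a had 51.8 and 52.5 CPM, Sox17 55.0 and 43.0 CPM and Gata4 45.9 and 46.8 CPM. Unlike the other lists, the regulators stayed in the clustering. Hnf4a was among the markers that named this class, and Sox17 and Foxa1 among those of other classes. The levels of these genes there are thus partly set by the naming.

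In library sums, where 2.06% of all genes were called lower, 4 of 8 tested other apolipoproteins were called lower in Tet-TKO: Apoa2 (log2 fold change -4.21), Apoa5 (-4.42), Apoc2 (-4.94) and Apoc3 (-6.05). Of 9 other secreted carriers 4 were called lower, namely Trf (-5.45), the haem carrier Hpx (-3.60), and the protease inhibitors Serpina1a (-6.72) and Serpina1b (-4.14), whose near-identical copies can share reads. Of 7 lipoprotein assembly genes 1 was called lower, the cholesterol esterifying enzyme Soat2 (-4.80), and of 8 regulators 1, Hnf4a (-5.03). Of 9 endocytic receptors and adaptors 0 were called by edgeR, with 5 at an unadjusted p under 0.05, and 3 by DESeq2. The medians of the lists were -3.65, -2.66, -0.22, -0.68 and -0.49 in that order, beside 0.02 for all genes. With like Tet-TKO libraries summed 0 of 20734 genes were called, so all of these calls were lost.

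Within classes, the called pairs were 4 of 51 for the other apolipoproteins, 1 of 137 for lipoprotein assembly, 1 of 52 for the carriers, 1 of 197 for the receptors and adaptors and 0 of 77 for the regulators, beside 1723 of 289569 over all genes. In gut endoderm-like cells Trf (-3.55) and Apoa5 (-4.23) were lower. Clu was lower in endothelium-like (-1.49) and mesenchyme-like cells (-1.87), Lrp2 in mesenchyme-like cells (-2.15) and Soat2 in blood progenitor-like cells (-2.44). Apoc1 was the one higher, in blood progenitor-like cells (2.44 ± 0.35, SE, adjusted p = 0.00301).

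Across 31 classes of the WT host at E8.5, the profile of Ttr was most like those of Serpina1b, the fibrinolysis zymogen Plg and B4galnt2 (Pearson r of 0.983, 0.979 and 0.976 on log2 CPM with a pseudocount of 1, among 11428 genes). For Cubn the likest were Creb3l3, Pde6c and Pdzd3 (0.972, 0.969 and 0.966). For Apoe they were Selenop, Trf and Icam1 (0.832, 0.820 and 0.808). These values describe 1 set of classes that share libraries and free RNA. How far 1 class, the visceral endoderm-like, sets them was not tested, since they were not computed without it. Ttr correlated with the other 8 members besides Apoe at 0.889 to 0.974 and with Apoe at 0.649.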

How the data were processed

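The authors sequenced droplet libraries of sorted chimaera cells, aligned reads to mm10 in Cell Ranger, and the deposited values are raw UMI counts for each gene and barcode, neither normalised nor pooled. The file header names Cell Ranger 3.1.0, and the study's methods a later release. The members and gene lists were chosen with earlier results of these data known.

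Kept cells had at least 1500 UMIs, of which no more than 30% were mitochondrial and 35% ribosomal, as in the study. The members and the listed genes other than the regulators were left out of the clustering. From the rest, 2500 variable genes gave 50 components, which mutual nearest neighbours (20) aligned across libraries, and Leiden clusters (resolution 2, 15 neighbours). Versions were scanpy 1.11.5, leidenalg 0.10.2, Python 3.11.15, numpy 2.4.6, scipy 1.17.1 and pandas 2.3.3. A cluster took a class name when 3 or more of that class's markers, and the mean of all of them, exceeded other clusters by 1 on the log2 scale. That mean had to lead the next class by 0.2, and no other class could have more markers among the 10 leading genes. Clusters shallow for their libraries with no marker of the class among those genes stayed unnamed. Class names are rebuilt here and may differ from those of the study. Doublets were left in, and removed as an alternative (Scrublet, 1.19% to 7.83% of cells).

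Counts were summed per class and library (10 or more cells) or per library and tested with edgeR 4.0.16 in R 4.3.3 (filterByExpr, TMM, glmQLFit, glmQLFTest), Benjamini-Hochberg adjustment over all genes tested, with calls under an adjusted p of 0.01 that also changed by 1 or more on the log2 scale. DESeq2 1.42.0 was an alternative. The count test was tried on simulated counts with 200 genes changed, in all cells, gut endoderm-like and allantois-like cells. At an adjusted p under 0.01 edgeR recovered 100%, 99% and 99.5% of those changed by a log2 fold of 2. Of those changed by 1 it recovered 19%, 13% and 20.5%, so a gene not called may still differ. The simulated spread between libraries was a set value, and other steps were not simulated. Levels and ratios at E7.5 have no test. The text names the members and the listed genes that passed the threshold, with the highest and lowest genes of each list in visceral endoderm-like cells, and the 3 genes most like a member in Pearson correlation over classes. Further listed genes (Mttp, Lrp2, Sox17, Gata4 and the cluster neighbours) were picked for their role or position after values were seen.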

Additional observations from a re-analysis of the deposited data

Results flagged for a closer look

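Of 30 groups of 4 Tet-TKO libraries tested at E8.5, 9 had 1 library set apart by more than Dixon's 95% critical value, where chance flags about 1 in 20. In 4 of the 9, namely Apoa4 and Cubn in gut endoderm-like cells and Apob and Cubn in the reference cells, the other libraries were at 0, so that any count sets 1 apart and that rate does not apply. In gut endoderm-like cells that library was Tet-TKO library 1: Apoa1 had 25.1 CPM there against 3.70 CPM in the next highest library, Apob 7.83 against 1.06, Amn 7.37 against 1.14, Cubn 0.922 against 0 and Apoa4 0.691 against 0. In sums over all cells Tet-TKO library 3 was apart, with 1.66 CPM of Apoa4 against 0.307 and 4.78 CPM of Apob against 1.22. In the reference cells the same library had 0.00980 Apob UMIs per cell and 0.00327 of Cubn, from 3 and 1 UMIs, where the other 3 libraries had 0.

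The barcodes that the filters left out, which enter only the sums over all barcodes, were richer in the members than the kept cells of every library. Summed CPM of the 10 genes were 9462 in left-out and 4173 in kept barcodes of E8.5 WT host library 1, and 3479 and 1240 in library 2. In E8.5 Tet-TKO libraries 1 to 4 the left-out barcodes held 1411, 839, 1374 and 604 CPM, against 224, 143, 192 and 84.9 CPM in kept cells. At E7.5 they held 9038 against 2528 CPM in the WT host and 815 against 262 CPM in Tet-TKO.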

How the results depend on the processing

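The 24 called of 123 pairs of a member and a class became 46 of 123 with DESeq2, 115 of 288 with no filter on low counts, 79 of 119 with libraries 1 and 2 alone and a replicate block, 2 changes made together, 8 of 138 with like Tet-TKO libraries summed and 3 of 43 after subtraction of the reference level. Over all genes and classes 1723 calls became 3339, 7544, 7199, 1172 and 1688 in that order. They ranged from 1 to 24 when 1 library was left out (1 without WT host library 1, 14 without WT host library 2, 10 without Tet-TKO library 2 and 12 without Tet-TKO library 3). In library sums the 558 of 21072 genes called became 1442 of 21072 with DESeq2, 940 of 36066 with no filter and 1711 of 20238 with the replicate block. Without visceral and parietal endoderm-like cells they were 425 of 20946, over all barcodes 574 of 21108 and with like libraries summed 0 of 20734. Beside these, the 2 called members became 10 with DESeq2, with no filter and with the replicate block on libraries 1 and 2. They became 4 others without visceral and parietal endoderm-like cells and 4 over all barcodes. With like libraries summed they were 0, where edgeR gave 10 of 10 an unadjusted p under 0.05. Without 1 library they were 0 or 1. The 26 pairs above the reference became 17 with cardiomyocyte-like cells as the reference and ranged from 14 to 27 without 1 library (16 without WT host library 1, 14 without WT host library 2). A class needed 2 libraries with 10 or more of its cells, and for visceral endoderm-like cells only the 2 WT host libraries had them. Without either, all pairs of that class drop out by this rule, whatever their fold. The summed level in WT host visceral endoderm-like cells, 40358 CPM, was 40258 CPM with uncorrected clusters and 44279 CPM with doublets removed. At E7.5 the 29262 CPM of that class became 29964 and 31512 CPM, and under these and a minimum of 3000 UMIs per cell 15 levels of single members there moved beyond counting error and 15 did not. The E7.5 median log2 ratio of -5.62 was -3.34 without visceral and parietal endoderm-like cells. No called value changed sign. After the subtraction 13 of the 43 pairs tested, many of them of Apoe, did so with no call in either fit. The causes were not tested beyond what each alternative removes. The shared library numbers name no shared pool in the labels: deviations of libraries 1 and 2 correlated at 0.543 over 7592 genes with only 2 pairs, so the pairing is not established. With 2 WT host libraries, 1 of them decides most calls, and low counts of Apoa4, Cubn and Apob leave few classes testable.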
